A study of Mus musculus with 16 samples.

Results

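Open chromatin was described at 8 mouse genes that encode transcription factors of early lymphoid priming, namely Ikzf1, Ikzf2, Ikzf3, Satb1, Bcl11a, Foxo1, Tcf3 and Tcf12. The genes were chosen by name. A region was counted at a gene when it overlapped the gene's span on build mm10 or the 50 kb on either side of it. This gave 162 of 122020 regions, at 8 of 21887 protein-coding genes. The assay was ATAC-seq, which reads where the Tn5 transposase can reach the DNA. It was run on haematopoietic progenitors of mice at 21 days of age that the labels call MPP (multipotent progenitors). The 16 samples made 8 groups of 2, in 2 sets told apart by their titles. In set 1 the groups were Flt3-ITD/Runx1-het, Flt3-ITD, Runx1-het and wild type, and in set 2 they were NUP98-HOXD13/Flt3-ITD, NUP98-HOXD13, Flt3-ITD and wild type. The samples were bulk, so a region open in fewer cells and one less open per cell cannot be told apart. Each group had 1 peak list, which the labels give for both of its samples, so no value here has a replicate error and no test between genotypes was possible.

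Flt3-ITD, a tandem duplication within the gene of the Flt3 cytokine receptor, keeps its kinase active. Runx1-het is a heterozygous state of a transcription factor gene of blood formation, and NUP98-HOXD13 is a leukaemia fusion gene. The zygosity of Flt3-ITD, the promoter that drives NUP98-HOXD13, the sorting gate, the sex of the mice and the number of mice behind a sample were not stated in the sources used here. No allele was shared by all 8 groups. The labelled cell type was compared with markers. The promoters of Kit, Cd34, Flt3, Cd48, Runx1, Ptprc and Myb were open in each of the 8 lists (7 of 7). Erythroid promoters (0 of 3) and hepatocyte promoters (0 of 2) were open in none of the lists, though Klf1, Epor and Apoa1 each had a region within 2 kb of the gene in all 8. The 4 stroma and endothelium markers, without a start window, held 16 to 28 regions per list. Neutrophil promoters were open at 2 or 3 of 4, T cell promoters at 1 of 4, and B cell promoters at 0 or 1 of 2. None of these promoter counts differed by more than 1 promoter between lists. The lists held 59935 regions in set-2 Flt3-ITD and 74304 to 91059 in the other 7, so a region missing from set-2 Flt3-ITD has to be read with the shortness of that list. Read depth was unknown.

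Lymphoid priming is the low, early activity of lymphoid genes in progenitors that can still form several blood lineages. The Ikaros family of zinc-finger proteins (Ikzf1 for Ikaros, Ikzf2 for Helios, Ikzf3 for Aiolos) recruits chromatin remodelling and repressor complexes, and Ikaros is needed for lymphoid priming. The E proteins E2A (Tcf3) and HEB (Tcf12) are basic helix-loop-helix factors that bind E-boxes and drive B and T cell programmes. Satb1 organises chromatin loops and favours lymphoid fate in stem cells. Bcl11a, a zinc-finger repressor, is needed for B cell development and silences fetal globin genes. Foxo1, a forkhead factor kept out of the nucleus by AKT signalling, activates Il7r and the Rag genes in B cell precursors.

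Several of these genes have more than 1 annotated start, and the starts of 1 gene differed widely in accessibility. The sequences that follow show such pairs, and the single start listed for Bcl11a. They are RefSeq windows of 300 bases on GRCm38.p6, from 250 before to 50 after the start, written 5′ to 3′ on the gene's strand. Capitals mark matches on either strand to TGTGGT or TGCGGT (RUNX), GGAAGT (ETS), CAGCTG or CAGGTG (E-box), GTAAACA (FOXO), TTCNNNGAA (STAT), AGATAA (for GATA factors) and GAAANNGAA (IRF). No matches of different motifs overlapped in the 13 windows of these genes.
Ikzf1 start 1, chr11:11685675-11685974, plus strand: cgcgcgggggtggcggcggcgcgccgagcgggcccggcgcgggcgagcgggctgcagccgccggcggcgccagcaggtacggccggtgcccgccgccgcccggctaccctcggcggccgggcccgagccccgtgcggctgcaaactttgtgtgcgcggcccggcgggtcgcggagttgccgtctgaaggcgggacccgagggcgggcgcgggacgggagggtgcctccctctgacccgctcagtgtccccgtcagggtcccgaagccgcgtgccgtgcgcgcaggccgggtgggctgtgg
Ikzf1 start 2, chr11:11689927-11690226, plus strand: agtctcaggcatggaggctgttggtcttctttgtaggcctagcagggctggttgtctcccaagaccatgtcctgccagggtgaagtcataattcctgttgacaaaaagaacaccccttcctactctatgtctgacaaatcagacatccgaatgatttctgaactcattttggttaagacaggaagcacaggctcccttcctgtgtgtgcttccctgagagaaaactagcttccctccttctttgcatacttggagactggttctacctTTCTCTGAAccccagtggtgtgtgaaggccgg
Satb1 start 4, chr17:51832598-51832897, minus strand: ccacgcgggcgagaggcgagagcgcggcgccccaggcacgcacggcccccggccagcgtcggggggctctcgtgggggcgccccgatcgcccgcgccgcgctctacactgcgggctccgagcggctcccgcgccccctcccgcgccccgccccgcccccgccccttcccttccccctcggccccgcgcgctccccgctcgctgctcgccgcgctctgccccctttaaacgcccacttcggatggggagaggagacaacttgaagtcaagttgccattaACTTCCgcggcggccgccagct
Satb1 start 3, chr17:51826539-51826838, minus strand: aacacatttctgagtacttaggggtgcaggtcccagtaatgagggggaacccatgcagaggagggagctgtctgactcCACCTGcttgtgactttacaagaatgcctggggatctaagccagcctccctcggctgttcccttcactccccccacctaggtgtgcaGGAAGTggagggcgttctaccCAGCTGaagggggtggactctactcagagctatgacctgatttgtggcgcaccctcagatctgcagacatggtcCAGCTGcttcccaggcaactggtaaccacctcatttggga
Tcf12 start 2, chr9:72111152-72111451, minus strand: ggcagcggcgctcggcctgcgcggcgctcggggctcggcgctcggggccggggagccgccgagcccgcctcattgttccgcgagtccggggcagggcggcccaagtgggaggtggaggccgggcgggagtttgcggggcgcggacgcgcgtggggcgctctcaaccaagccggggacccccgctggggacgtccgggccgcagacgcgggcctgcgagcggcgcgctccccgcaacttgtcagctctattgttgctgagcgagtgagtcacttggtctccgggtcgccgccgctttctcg
Tcf12 start 1, chr9:71896047-71896346, minus strand: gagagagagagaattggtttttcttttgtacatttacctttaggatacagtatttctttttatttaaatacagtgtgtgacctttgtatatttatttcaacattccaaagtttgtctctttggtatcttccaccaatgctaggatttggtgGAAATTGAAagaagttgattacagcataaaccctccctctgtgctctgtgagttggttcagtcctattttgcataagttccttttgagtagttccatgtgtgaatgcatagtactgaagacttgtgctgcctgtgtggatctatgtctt
Bcl11a start, chr11:24080445-24080744, plus strand: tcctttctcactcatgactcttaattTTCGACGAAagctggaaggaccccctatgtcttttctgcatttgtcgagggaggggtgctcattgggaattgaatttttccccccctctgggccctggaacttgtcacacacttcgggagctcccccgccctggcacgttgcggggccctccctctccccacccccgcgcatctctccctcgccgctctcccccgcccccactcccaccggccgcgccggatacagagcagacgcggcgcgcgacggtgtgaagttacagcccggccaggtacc

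The windows of Ikzf1 start 1, Satb1 start 4 and Tcf12 start 2 had GC contents of 81.3%, 76.7% and 75.7%, and those of Ikzf1 start 2, Satb1 start 3 and Tcf12 start 1 had 49.0%, 56.0% and 36.3%. The median over 32851 windows in the RefSeq table was 52.7%. The observed number of CpG dinucleotides over that from base composition was 1.06 at each of the 3 GC-rich starts, against 0.111 at Ikzf1 start 2, 0.128 at Satb1 start 3 and 0 at Tcf12 start 1. Over the 13 windows of the 6 genes with an entry, ETS letters occurred in 6 (23.8% of all windows in the table), E-box letters in 3 (32.9%), STAT letters in 2 (8.30%) and IRF letters in 1 (8.56%). RUNX letters (22.4%), FOXO letters (3.65%) and GATA letters (11.2%) were in 0 of the 13. Some of the windows overlap, and a match is a string of letters and not a binding site. Satb1 start 3 held 3 E-box matches, the most of any of the 13 windows.

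Accessibility at the paired starts followed the same division in each list. Ikzf1 start 1 lay in a region at chr11:11685274-11686447 with −log10 p, the authors' value for the best peak, of 230.9 in Flt3-ITD/Runx1-het, 151.8 in set-1 Flt3-ITD, 199.2 in Runx1-het and 139.4 in set-1 wild type. The set-2 values were 123.1 in NUP98-HOXD13/Flt3-ITD, 152.3 in NUP98-HOXD13, 49.5 in Flt3-ITD and 214.0 in wild type. Ikzf1 start 2, in a region at chr11:11689905-11690620, had 30.7 in Flt3-ITD/Runx1-het, no peak in set-1 Flt3-ITD, 55.5 in Runx1-het and 35.9 in set-1 wild type, and in set 2 it had 17.0 in NUP98-HOXD13/Flt3-ITD, 22.4 in NUP98-HOXD13, 14.9 in Flt3-ITD and 43.1 in wild type. Start 1 stood above start 2 in all 8 lists, and set-1 Flt3-ITD was the 1 list without a peak at start 2. The scale of −log10 p differed between lists. Its median over all peaks was 15.8 in set-2 Flt3-ITD, 38.5 in set-2 wild type and 24.7 to 35.3 in the others. A value is therefore read within its own list and not as a change between lists. Counted from the top of each list's own regions, start 1 lay at 9.98% to 19.2% and start 2 at 45.4% to 82.4%. For start 1 this was 18.8% in set-2 Flt3-ITD and 16.7% in set-2 wild type.

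Satb1 showed the same contrast between its starts. The region at chr17:51831532-51833653, over starts 4 and 5, was in all 8 lists at 13.2% to 23.6% from the top. The window of start 5 had 59% GC and a CpG number of 0.307 times that from base composition. This region thus also covered a start that was poor in CpG. A peak over start 3 was in set-1 wild type alone, with −log10 p of 10.2, at 97.6% from the top. Another region at chr17:51812426-51814053 reached into the window of start 2 without covering the start itself, and was in all 8 lists at 39.3% to 81.8%. No region lay over the window of start 1 (0 lists). At Tcf12 the region over starts 2 and 3 (chr9:72110615-72112470) lay at 17.8% to 39.0%, and that over start 1 (chr9:71895972-71896746) at 51.7% to 94.1%, again in all 8 lists. Foxo1 and Tcf3, with 1 start each, had GC contents of 61.3% and 61.7%, and regions at 7.45% to 18.3% and 8.43% to 16.9%.

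The start window listed for Bcl11a had few peaks on it, with 63.0% GC and a CpG number of 0.815 times that from base composition. The short region over that start (chr11:24080567-24080764) was present in NUP98-HOXD13/Flt3-ITD with −log10 p of 23.8 and in set-2 wild type with 16.2, and in none of the other 6 lists. The next region along the gene, at chr11:24080822-24081641, was in all 8 lists. Its −log10 p was 65.2 in Flt3-ITD/Runx1-het, 59.5 in set-1 Flt3-ITD, 96.3 in Runx1-het and 62.7 in set-1 wild type, and 52.7 in NUP98-HOXD13/Flt3-ITD, 53.2 in NUP98-HOXD13, 16.0 in set-2 Flt3-ITD and 96.0 in set-2 wild type. A further region across the lower end of the gene span (chr11:24076008-24076620), which on the plus strand is its 5′ end, was also in all 8 lists and ranked higher, at 14.3% to 27.2% from the top. Close to it inside the span, chr11:24077193-24078181 was in all 8 lists too. With each list cut to the same number of peaks, its best peak ranked 8888 to 19708, against 14053 to 18827 for the region at the gene end. It was the higher of the pair in every list but NUP98-HOXD13. The first part of Bcl11a was thus accessible in every list, mostly beside the listed start and not over it. Ikzf2 and Ikzf3 are named without a start window.

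**Figure D1:**
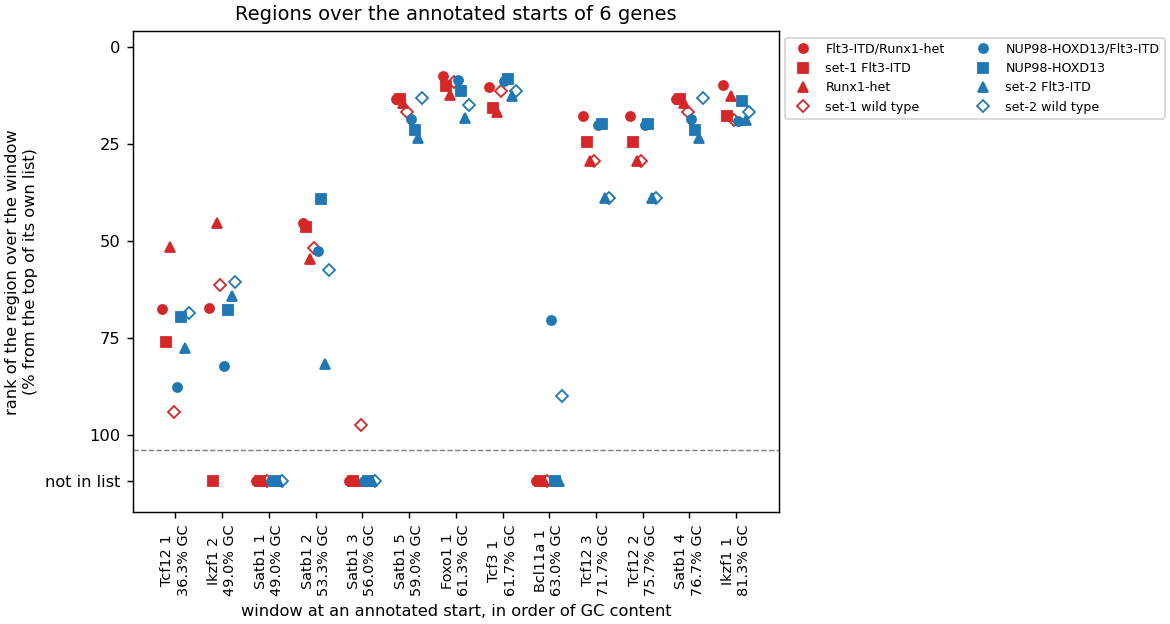
Rank of the region over each of 13 annotated start windows, as % from the top of the list's own regions (0 at the top of the axis), with windows in order of GC content on the x axis and 1 point per list (red for set 1, blue for set 2, open diamonds for wild type). Ikzf1 start 2 (49.0% GC) and Tcf12 start 1 (36.3% GC) lie at 45.4% or further from the top where present, whereas Ikzf1 start 1 (81.3% GC) lies within the top 19.2% of every list.

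On mm10, Ikzf1 spans chr11:11684962-11772930, Ikzf2 chr1:69531207-69687351, Ikzf3 chr11:98464610-98546031 and Satb1 chr17:51736187-51833290. Bcl11a spans chr11:24076564-24173558, Foxo1 chr3:52268337-52350109, Tcf3 chr10:80409541-80433976 and Tcf12 chr9:71844252-72111893. Exons and introns were not used here, so a region is placed inside or outside a span only. The 8 loci differed in how much open chromatin they held. Bcl11a had 39 regions and Ikzf1 had 30, which is 19.8 and 16.0 per 100 kb of window. Tcf3 had 13 (10.4 per 100 kb), Foxo1 16 (8.80), Ikzf2 22 (8.59), Satb1 14 (7.10), Ikzf3 10 (5.51) and Tcf12 18 (4.90). The median of the 8 was 8.70 per 100 kb, against 7.61 for all protein-coding genes of the table. The windows of Ikzf2, Satb1, Bcl11a and Foxo1 overlap no other protein-coding gene. That of Ikzf1 also holds Fignl1 and Ddc, that of Ikzf3 holds Erbb2, Mien1, Grb7, Zpbp2 and Ormdl3, that of Tcf3 holds Plk5, Mex3d, Mbd3 and Uqcr11, and that of Tcf12 reaches Cgnl1. At Ikzf3 1 of 10 regions and at Tcf3 2 of 13 lay over the gene's own span, so most regions counted there lay outside the gene itself. The 50 kb limit passed through open chromatin. The outermost region inside it lay 49940 bp from Foxo1 (−log10 p up to 36.2), and the nearest outside it 50715 bp from Tcf3 (up to 28.6). A region 52969 bp from Bcl11a, in all 8 lists with a value up to 482.5, was also outside.

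Numbers of regions per list varied modestly except in the shortest list. At Ikzf1 the lists held 22 regions in Flt3-ITD/Runx1-het, 23 in set-1 Flt3-ITD, 22 in Runx1-het and 22 in set-1 wild type, against 19 in NUP98-HOXD13/Flt3-ITD, 20 in NUP98-HOXD13, 17 in set-2 Flt3-ITD and 22 in set-2 wild type. Bcl11a held 23 in Flt3-ITD/Runx1-het, 22 in set-1 Flt3-ITD, 22 in Runx1-het and 21 in set-1 wild type, and 21 in NUP98-HOXD13/Flt3-ITD, 18 in NUP98-HOXD13, 13 in set-2 Flt3-ITD and 23 in set-2 wild type. Foxo1 held 10 regions in Flt3-ITD/Runx1-het, 13 in set-1 Flt3-ITD, 12 in Runx1-het and 10 in set-1 wild type, and 14 in NUP98-HOXD13/Flt3-ITD, 11 in NUP98-HOXD13, 5 in set-2 Flt3-ITD and 13 in set-2 wild type. Set-2 Flt3-ITD was the lowest list at all 8 loci. Over the 8 loci it held 67 regions (41.4% of 162), and the other 7 lists held 99 to 109 (61.1% to 67.3%). Of all 122020 regions it held 46.9%, and the others 59.1% to 72.4%.

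**Figure D2:**
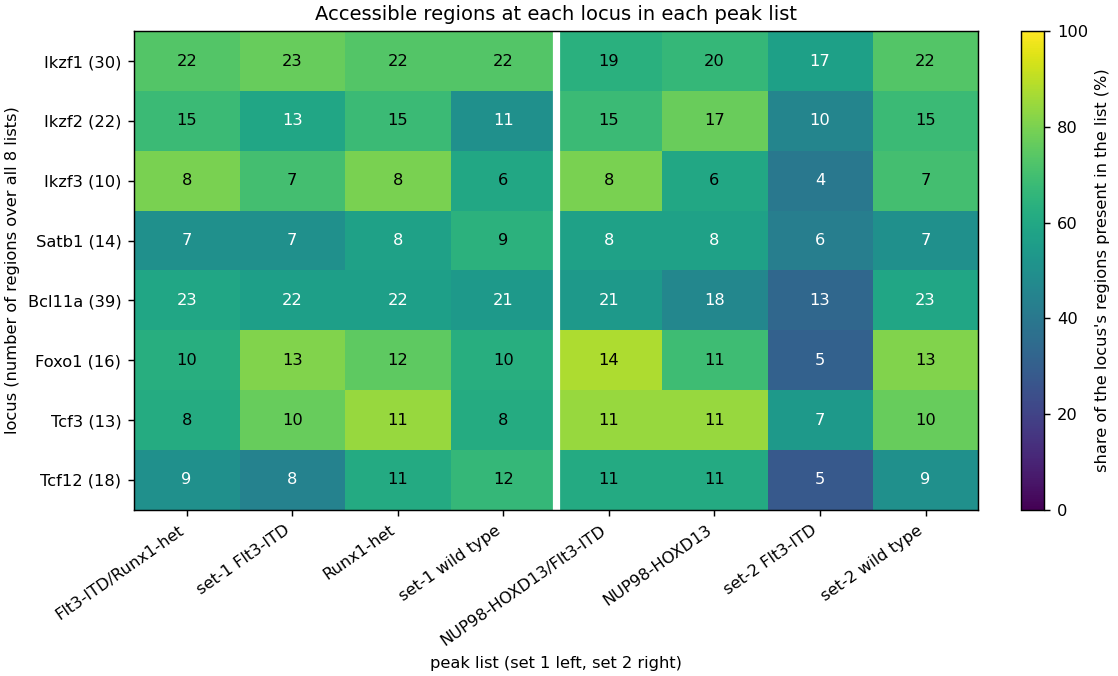
Number of regions at each locus (rows, with the number over all 8 lists in brackets) in each peak list (columns, set 1 to the left of the white line), coloured by the share of the locus's regions present in that list. The set-2 Flt3-ITD column is the lowest in every row, from 4 regions at Ikzf3 to 17 at Ikzf1.

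Of the 162 regions, 52 (32.1%) were present in all 8 lists, against 34.1% of all regions, and 34 (21.0%) were in 1 list, against 18.9%. The share in all 8 lists was highest at Tcf3 (6 of 13), Ikzf1 (13 of 30) and Ikzf3 (4 of 10), and lowest at Foxo1 (2 of 16). Bcl11a had 13 of the 34 regions found in 1 list, and Tcf3 had 0. Regions over a RefSeq start window, of any gene, were in all 8 lists at 14 of 17 (82.4%, against 80.0% of such regions in the whole set). The remaining 145 were in all 8 lists at 38 (26.2%, against 28.4%). Regions in all 8 lists had a median width of 907 bp and a median of the highest −log10 p of 150, and those in 1 list 343 bp and 11.2. The loci thus lay near the whole set in each of these measures.

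The region with the highest −log10 p at a locus was often not at the gene's start. At Ikzf1 it changed between lists. The region at chr11:11762945-11763785, inside the gene span near its far end, led in set-1 Flt3-ITD, set-2 Flt3-ITD and set-2 wild type. A region over the Fignl1 promoter (chr11:11808589-11809525) led in the other 5 lists. The region inside Ikzf1 had a fold enrichment, the authors' ratio of summit signal to local background, of 16.5 in Flt3-ITD/Runx1-het, 17.4 in set-1 Flt3-ITD, 17.1 in Runx1-het and 17.2 in set-1 wild type. The set-2 values were 12.3 in NUP98-HOXD13/Flt3-ITD, 13.3 in NUP98-HOXD13, 16.3 in Flt3-ITD and 19.3 in wild type. Both lists with NUP98-HOXD13 had the lowest values.

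Among the other Ikaros genes, the leading region of Ikzf2 lay 16996 bp below its span (chr1:69513424-69514211) in 5 lists. In both lists with NUP98-HOXD13 it was a region inside the gene (chr1:69606624-69607557). The Runx1-het list was led by a region over the upper end of the span (chr1:69687023-69687997). The leading regions at Ikzf3 were those over the promoters of Ormdl3 in 5 lists, Mien1 in set-1 wild type and NUP98-HOXD13/Flt3-ITD, and Zpbp2 in set-2 Flt3-ITD. They lay at 15.4% to 42.7% from the top of the list they led. Only 1 region lay over the Ikzf3 span (chr11:98545638-98546128, across its upper end). It was present in Flt3-ITD/Runx1-het with −log10 p of 12.9 and in Runx1-het with 27.5, and in no other list. Strand was not used for Ikzf2 and Ikzf3, so these ends are not called starts.

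Bcl11a was led by 2 regions beyond its far end, at 11221 bp (chr11:24184779-24185737, 5 lists) and at 26570 bp (chr11:24200128-24200988, in Runx1-het, set-2 Flt3-ITD and set-2 wild type). They lay at 3.88% to 9.48% from the top of the list they led. At Satb1 the start region led in 7 lists, and a region at chr17:51814199-51814832 in NUP98-HOXD13. Foxo1 was led by its start region in all 8 lists, with a fold enrichment of 17.2 in Flt3-ITD/Runx1-het, 14.6 in set-1 Flt3-ITD, 12.7 in Runx1-het and 13.7 in set-1 wild type, and 13.0 in NUP98-HOXD13/Flt3-ITD, 12.2 in NUP98-HOXD13, 11.9 in set-2 Flt3-ITD and 13.2 in set-2 wild type. Tcf12 was led by the region over starts 2 and 3 in 6 lists, and by chr9:71950978-71951873, inside the gene, in NUP98-HOXD13 and set-2 wild type. The leading region at Tcf3, over the promoter of Mbd3 (chr10:80398709-80400212), lay at 1.36% to 3.86%. It ranked above the leading region of Ikzf1 in the 4 set-2 lists and below it in the 4 set-1 lists. Mbd3 encodes a subunit of the NuRD remodelling complex.

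Each mutant list was next set against the wild-type list of its set. A region present in the mutant list and absent from the wild-type list was called gained, and the reverse lost. At the 8 loci, Flt3-ITD/Runx1-het gained 24 regions (14.8%, against 15.6% of all regions) and lost 21 (13.0%, against 7.94%). Set-1 Flt3-ITD gained 20 (12.3%, against 13.6%) and lost 16 (9.88%, against 7.35%). Runx1-het gained 23 (14.2%, against 15.0%) and lost 13 (8.02%, against 6.31%). In set 1 the shares gained were near those of all regions, and the shares lost were above them in all 3 lists. Against the wild-type list of set 2 the direction for losses was reversed. Flt3-ITD/Runx1-het then lost 13.6% at the loci (against 16.5% of all regions), Flt3-ITD lost 10.5% (against 15.5%) and Runx1-het lost 9.88% (against 14.0%). Whether the loci lost more or fewer regions than the whole set thus depended on which wild-type list was used.

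NUP98-HOXD13/Flt3-ITD gained 21 regions at the 8 loci (13.0%, against 8.09% of all regions) and lost 20 (12.3%, against 18.8%). NUP98-HOXD13 gained 18 (11.1%, against 8.85%) and lost 22 (13.6%, against 17.3%). Set-2 Flt3-ITD gained 5 (3.09%, against 3.29%) and lost 44 (27.2%, against 28.7%). With NUP98-HOXD13 the loci held a higher share of gains and a lower share of losses than all regions did, against this wild-type list. Against the wild-type list of set 1 the losses lay above the whole set, at 12.3% in NUP98-HOXD13/Flt3-ITD (against 10.6%), 12.3% in NUP98-HOXD13 (against 9.80%) and 22.2% in Flt3-ITD (against 18.5%). Gains were then 17.3% in NUP98-HOXD13/Flt3-ITD (against 13.1%) and 14.2% in NUP98-HOXD13 (against 14.6%). With the same number of peaks from every list, the 8 loci held 127 regions. NUP98-HOXD13/Flt3-ITD then gained 10 (7.87%, against 9.47%) and lost 10 (7.87%, against 12.7%), and NUP98-HOXD13 gained 13 (10.2%, against 9.19%) and lost 9 (7.09%, against 11.7%). The lower share of losses held with equal numbers in both lists but not with the other wild-type list, so no direction relative to the whole set is drawn from these shares. Lists of equal genotype also differed. Set-2 Flt3-ITD had 5 regions that set-1 Flt3-ITD lacked (3.09%, against 4.40%) and lacked 41 that it had (25.3%, against 22.9%). Set-2 wild type had 22 that set-1 wild type lacked (13.6%, against 18.9%) and lacked 15 that it had (9.26%, against 5.63%).

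**Figure D3:**
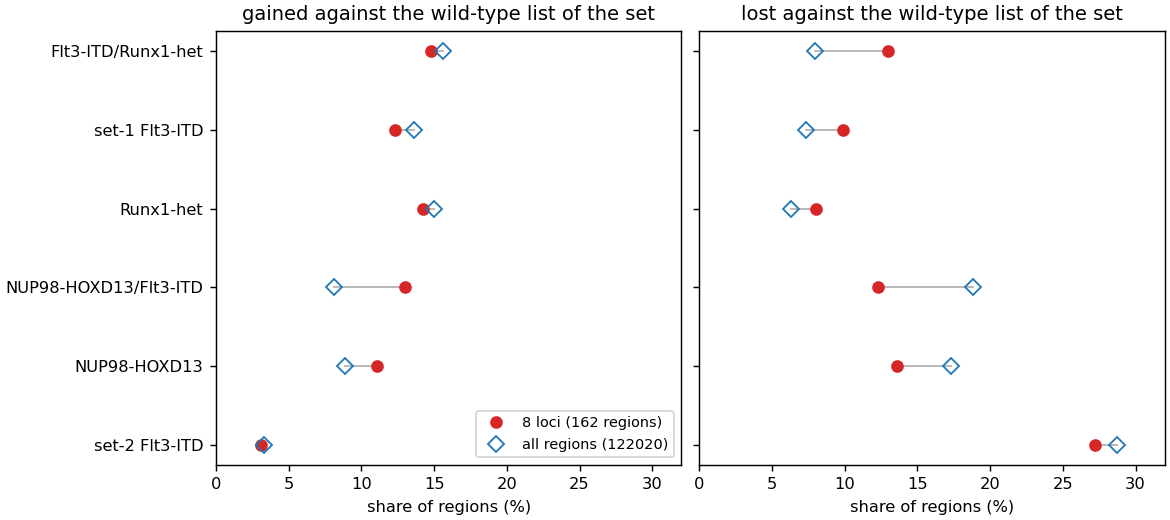
Share of regions gained (left) and lost (right) in each mutant list against the wild-type list of its set, for the 162 regions at the 8 loci (filled circles) and for all 122020 regions (open diamonds). Losses at the loci lie above the whole set in the 3 set-1 lists (13.0% against 7.94% in Flt3-ITD/Runx1-het) and below it in the 3 set-2 lists, and both directions are reversed with the wild-type list of the other set (13.6% against 16.5% in Flt3-ITD/Runx1-het).

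The gains at the 8 loci were weak regions, as were all but 1 of the losses, and most gains and losses in the whole set were weak too. A strong region was one whose best peak was in the top 25% of the peaks of its own list by −log10 p. No strong gain occurred at the 8 loci in any of the 6 mutant lists (0 of 162, against 0.373% of all regions). Strong gains were rare in the whole set as well, at 189 of 19004 gains in Flt3-ITD/Runx1-het, for example. A strong loss occurred at 1 region (0.617%, against 1.40%). This region, chr3:52343256-52344200, lies inside the Foxo1 span and had no peak in set-2 Flt3-ITD. Its fold enrichment was 18.5 in Flt3-ITD/Runx1-het, 16.9 in set-1 Flt3-ITD, 13.2 in Runx1-het and 16.3 in set-1 wild type. The set-2 values were 7.59 in NUP98-HOXD13/Flt3-ITD, 9.97 in NUP98-HOXD13 and 14.2 in wild type. All 3 set-2 mutant lists lay below the other 5, by a lower fold or by the lack of a peak.

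A stricter count took a region as gained only if both lists that carry a mutation had it and neither of the other lists of the set did, and as lost in the reverse case. With Flt3-ITD in set 1, 4 regions were gained (2.47%, against 2.79% of all regions) and 4 lost (2.47%, against 1.78%). The gains lay at Ikzf1 (chr11:11717630-11717996), Ikzf2 (chr1:69659774-69660063), Bcl11a (chr11:24149436-24150085) and upstream of Foxo1 (chr3:52262475-52263096). The Ikzf1, Ikzf2 and Bcl11a regions also had a peak in set-2 wild type, with −log10 p of 28.4, 13.8 and 17.0. The Foxo1 region had −log10 p of 35.4 in Flt3-ITD/Runx1-het and 28.5 in Flt3-ITD, and also 10.4 in NUP98-HOXD13/Flt3-ITD, so it was present in 3 of the 4 lists with Flt3-ITD and in no list without it. With the same number of peaks from every list, the Foxo1 region was in Flt3-ITD/Runx1-het and set-1 Flt3-ITD alone. The Ikzf1, Ikzf2 and Bcl11a regions were then no longer in both of these lists. The number gained stayed at 4 (3.15%, against 2.64%), because other regions took their place. These were at Ikzf1 (chr11:11781647-11782078) and Bcl11a (chr11:24098926-24099546 and chr11:24141604-24141865). Of the 4 losses in the lists as deposited, 3 were at Tcf12 and 1 was just below Satb1 (chr17:51735054-51736034). No region at the 8 loci was shared by all 4 lists with Flt3-ITD and limited to them (0, against 0.0582%), or missing from just those lists (0, against 0.192%).

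With Runx1-het 5 regions were gained (3.09%, against 2.38% of all regions) and 2 lost (1.23%, against 1.15%). The gains were 1 each at Ikzf2 (chr1:69683165-69683441), Ikzf3, Satb1 (chr17:51811545-51811783), Bcl11a (chr11:24142054-24142636) and Tcf12 (chr9:72096978-72097458). The Ikzf3 region at the upper end of the span and the Bcl11a region were in both Runx1-het lists and no other (2, or 1.23%, against 0.529%). The Bcl11a region had −log10 p of 18.3 in Flt3-ITD/Runx1-het and 12.9 in Runx1-het. With the same number of peaks from every list, the Bcl11a region was in 0 lists and the Ikzf3 region in Runx1-het alone, so neither was then limited to both lists. The losses were at Satb1 (chr17:51751981-51752705) and Tcf12 (chr9:71986711-71987088). No region was missing from just the Runx1-het lists (0, against 0.0762%).

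With NUP98-HOXD13 5 regions were gained (3.09%, against 2.80% of all regions) and 0 lost (against 2.07%). The gains were 2 at Ikzf2, and 1 each at Bcl11a, Tcf3 and Tcf12. The Tcf12 region (chr9:72096978-72097458) was the same one that was gained with Runx1-het, with −log10 p of 34.6 in Flt3-ITD/Runx1-het, 17.1 in Runx1-het, 18.7 in NUP98-HOXD13/Flt3-ITD and 17.5 in NUP98-HOXD13, and no peak in either wild type or either Flt3-ITD list. The region near Tcf3 (chr10:80405886-80406115, over Uqcr11) was limited to both lists with NUP98-HOXD13 (1, or 0.617%, against 0.938%), with 9.10 in NUP98-HOXD13/Flt3-ITD and 14.1 in NUP98-HOXD13. With equal numbers of peaks it was in NUP98-HOXD13 alone, and the Tcf12 region was in the same lists except Runx1-het. None was missing from just these lists (0, against 0.527%). With Flt3-ITD in set 2, 1 region upstream of Tcf3 was gained (0.617%, against 0.452%) and 5 were lost (3.09%, against 4.50%), 2 of them at Tcf3 and 1 each at Bcl11a, Foxo1 and Tcf12.

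Presence takes no account of where a region stands in its list, so ranks were compared. For this, each list was cut to its 84080 peaks of highest −log10 p, as many as the shortest list holds. The lowest −log10 p kept was 1 in set-2 Flt3-ITD, which stayed whole, and 13.7 to 26.9 in the others. A region without a kept peak was ranked last, so the limit for being ranked differed between lists. A region counted when its ranks in 1 group of lists all lay on 1 side of every other list. This comparison was chosen after the values had been seen. Both NUP98-HOXD13 lists ranked higher than the other 6 at 10 of the 162 regions (6.17%, against 6.45% of all regions) and lower at 6 (3.70%, against 4.95%). Of the 10, 3 each were at Ikzf3 and Tcf12, 2 at Foxo1 and 1 each at Ikzf2 and Tcf3, whereas the 6 were 2 each at Ikzf1, Satb1 and Bcl11a. The nearest ranks on the 2 sides were 1.01 to 1.46 times apart at the 10, and 1.04 to 1.94 times apart at the 6, so several of these separations were slight. With whole-list ranks the counts were 10 (against 6.7% of all regions) and 4 (against 4.08%), of which 6 and 4 were shared.

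The Ikzf1 region near the far end of the gene (chr11:11762945-11763785) showed the widest separation among the lower ones. Its best peak ranked 7949 in NUP98-HOXD13/Flt3-ITD and 9287 in NUP98-HOXD13. It ranked 4101 in Flt3-ITD/Runx1-het, 1956 in set-1 Flt3-ITD, 3330 in Runx1-het, 2400 in set-2 Flt3-ITD, 3010 in set-1 wild type and 2579 in set-2 wild type. The rank in NUP98-HOXD13/Flt3-ITD was thus 1.94 times that in Flt3-ITD/Runx1-het, the nearest list without the fusion. Nearby on the same gene, chr11:11711610-11712218 ranked 19994 in NUP98-HOXD13/Flt3-ITD and 19709 in NUP98-HOXD13, against 11149 to 16139 in the others. At Bcl11a the leading region at 26570 bp beyond the gene ranked 8974 in NUP98-HOXD13/Flt3-ITD and 15366 in NUP98-HOXD13, against 2441 to 6993 in the others. The Satb1 start region ranked 15965 in NUP98-HOXD13/Flt3-ITD and 19153 in NUP98-HOXD13, against 11996 to 15354. The 15354 was in set-2 Flt3-ITD, so all 3 set-2 mutant lists ranked this region lower than the other lists did.

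In the other direction, the region inside Ikzf2 that leads in both NUP98-HOXD13 lists ranked 7973 in NUP98-HOXD13/Flt3-ITD and 6634 in NUP98-HOXD13. The remaining lists ranked it 19472 in Flt3-ITD/Runx1-het, 16890 in set-1 Flt3-ITD, 23566 in Runx1-het, 15253 in set-2 Flt3-ITD, 12604 in set-1 wild type and 11639 in set-2 wild type. The Tcf3 start region ranked 7202 in NUP98-HOXD13/Flt3-ITD and 7266 in NUP98-HOXD13, against 8179 to 15784 in the others. The 8179 was in set-2 Flt3-ITD, so all 3 set-2 mutant lists ranked this region higher than the other lists did. A region inside Tcf12 (chr9:71950978-71951873) ranked 21118 in NUP98-HOXD13/Flt3-ITD and 17776 in NUP98-HOXD13, against 25507 to 40553. Ikzf1 and Ikzf2 thus each held a region inside the gene on which both NUP98-HOXD13 lists stood apart, in opposite directions.

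All 3 set-2 mutant lists ranked higher than the other 5 lists at 5 regions (3.09%, against 2.02% of all regions) and lower at 8 (4.94%, against 2.83%). With whole-list ranks the counts were 0 and 11, so the higher ranks did not hold with that choice, and 7 of the 8 lower ones did. Of the 8, 4 were at Bcl11a, 2 at Foxo1, and 1 each at Ikzf1 and Satb1. A Bcl11a region (chr11:24161906-24162525) had −log10 p of 14.5 in NUP98-HOXD13/Flt3-ITD, no peak in NUP98-HOXD13 and 10.8 in set-2 Flt3-ITD, against 83.4 in set-2 wild type. In set 1 it had 67.0 in Flt3-ITD/Runx1-het, 123.5 in Flt3-ITD, 73.8 in Runx1-het and 61.3 in wild type. With the lists cut to equal numbers, it ranked 55110 in set-2 Flt3-ITD, 41191 in set-2 wild type and 20461 to 37208 in set 1. No peak was kept in either list with NUP98-HOXD13. The Foxo1 region with the strong loss was another of the 8. Some regions were also counted in the comparison of both NUP98-HOXD13 lists, among them this Bcl11a region and the start regions of Satb1 and Tcf3.

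At Foxo1 the order of 2 regions was turned round in these 3 lists. The region inside the gene (chr3:52343256-52344200) had −log10 p of 30.5 in NUP98-HOXD13/Flt3-ITD, 46.9 in NUP98-HOXD13 and no peak in set-2 Flt3-ITD, against 121.1 in set-2 wild type. A region 45919 bp beyond the gene (chr3:52396028-52396730) had 49.9 in NUP98-HOXD13/Flt3-ITD, 73.6 in NUP98-HOXD13 and 10.4 in set-2 Flt3-ITD, against 46.8 in set-2 wild type. In set 1 the outer region had no peak in Flt3-ITD/Runx1-het, 10.9 in Flt3-ITD, 35.2 in Runx1-het and 22.5 in wild type, each below the inner one. The inner region was the higher of the pair in the 5 other lists, and the outer one in the 3 set-2 mutant lists.

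The ranks of the other mutations separated few regions. All 4 Flt3-ITD lists ranked higher than the rest at 0 of the 162 regions (against 0.888%) and lower at 1 (0.617%, against 1.02%), the Bcl11a region next to its start. Both Runx1-het lists ranked higher at 1 (0.617%, against 2.37%), the region of Ikzf1 start 1, and lower at 5 (3.09%, against 1.06%). With whole-list ranks the counts were 0 (against 0.377% of all regions) and 4 (against 1.95%) for Flt3-ITD. For Runx1-het they were 6 (against 4.87%) and 2 (against 0.457%). The 5 lower ones were 1 each at Ikzf1, Ikzf2, Bcl11a, Tcf3 and Tcf12. The Bcl11a region (chr11:24111692-24112254) ranked 40424 in Flt3-ITD/Runx1-het and 27567 in Runx1-het, against 23684 in set-1 Flt3-ITD, 17581 in set-1 wild type and 11559 to 20027 in the 4 set-2 lists.

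**Figure D4:**
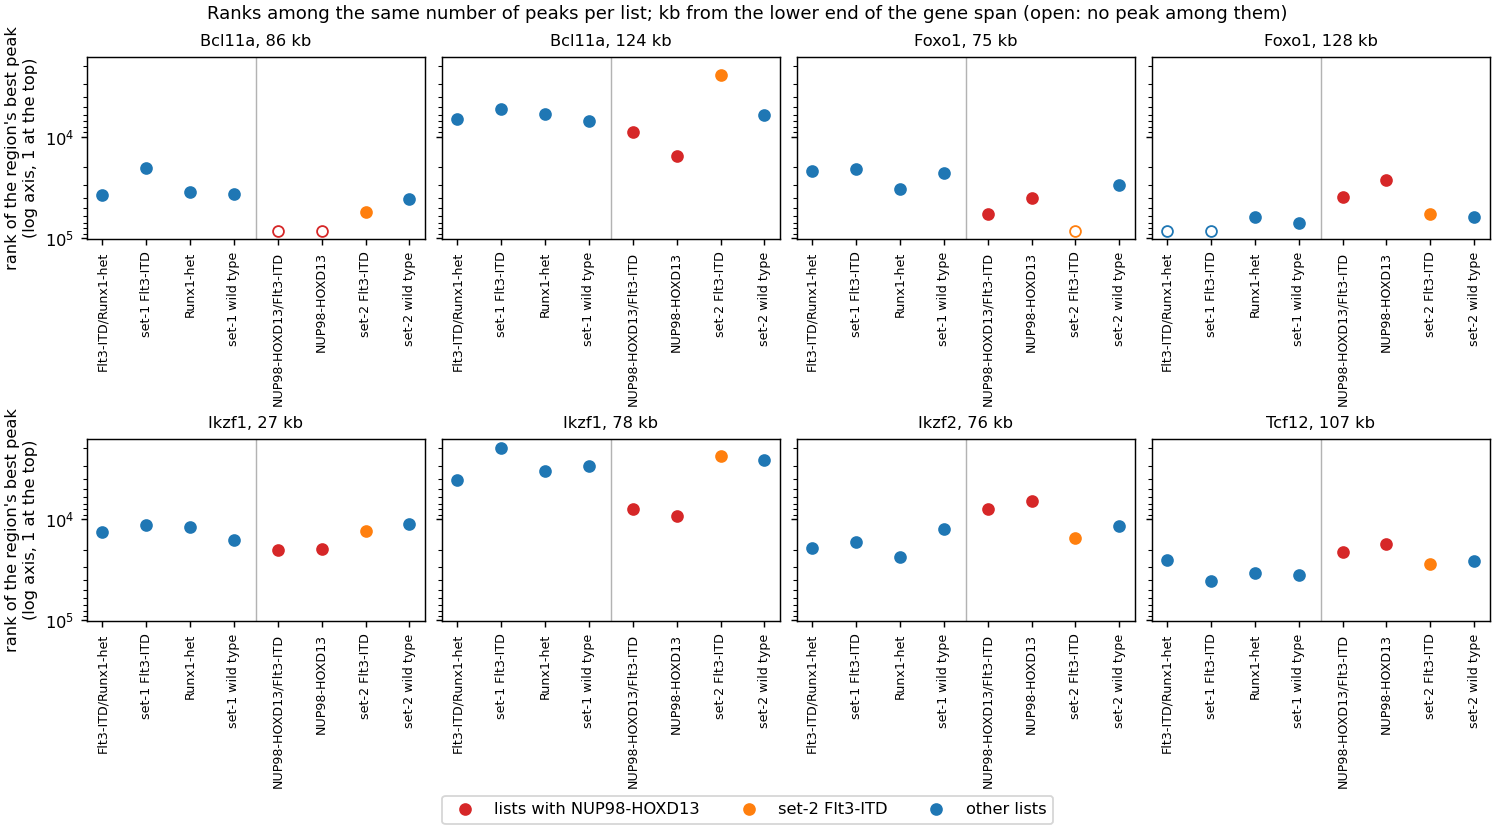
Rank of the best peak of 8 regions among the same number of peaks from every list (log axis, rank 1 at the top), for regions whose ranks with NUP98-HOXD13 or in the 3 set-2 mutant lists stood more than 1.2 times from every other list, headed by gene and by distance from the lower end of its span. At the Ikzf1 region at 78 kb the NUP98-HOXD13 lists lie at 7949 and 9287 and the others at 1956 to 4101.

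**Figure D5:**
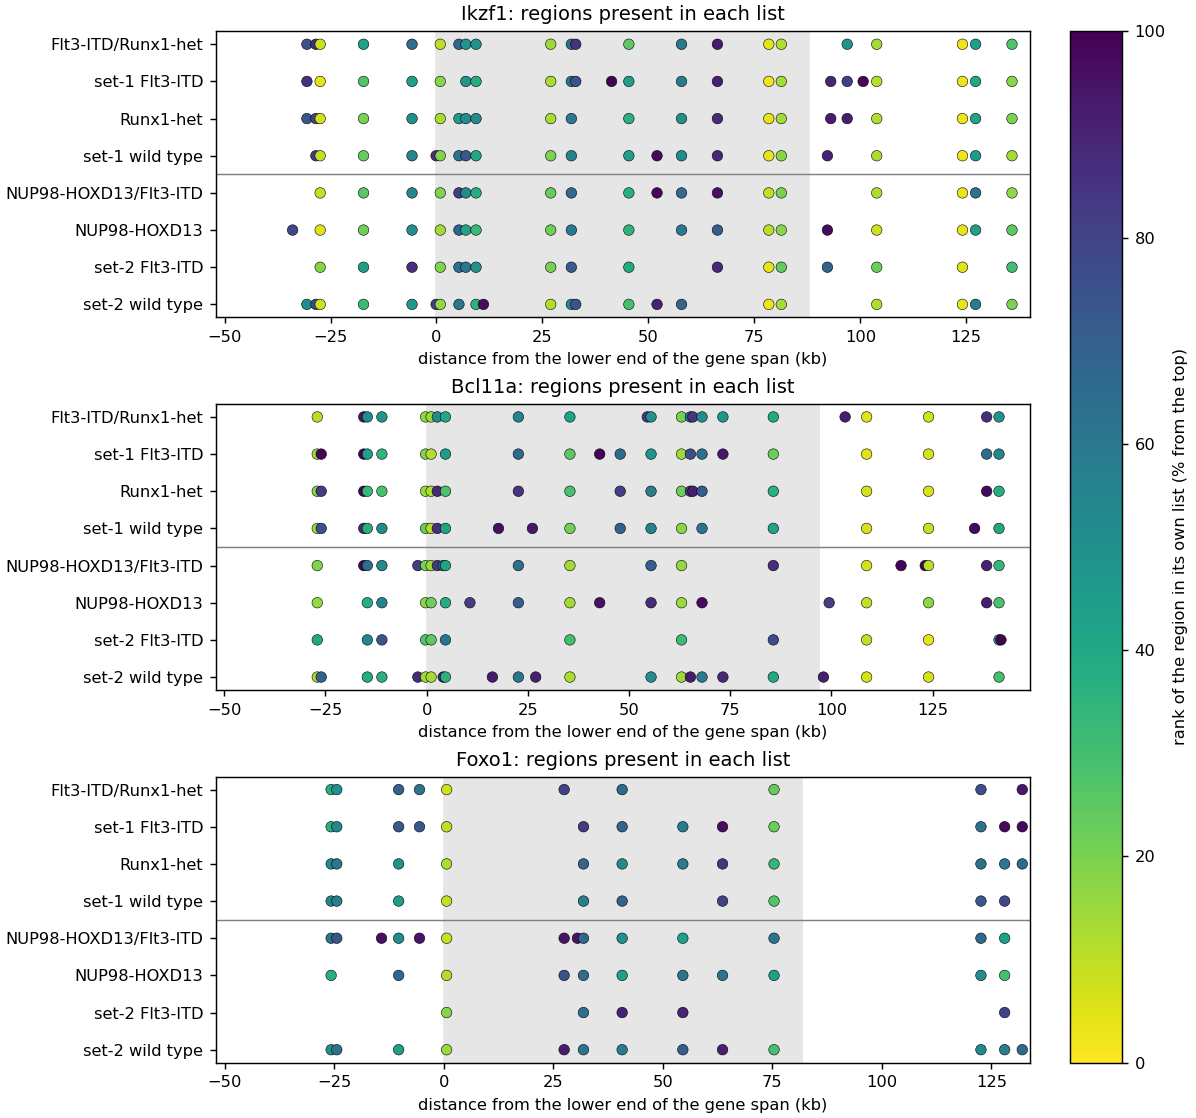
Regions present in each list (rows, set 1 above the line) along the Ikzf1, Bcl11a and Foxo1 windows, by distance from the lower end of the gene span (grey), coloured by the rank of the region in its own list. The high-ranking regions line up in every row, the set-2 Flt3-ITD row is the sparsest (17, 13 and 5 regions), and the Foxo1 region at 75 kb is missing from it.

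Regions missing from set-2 Flt3-ITD alone numbered 12 of the 162 (7.41%, against 5.60% of all regions), and 4 of them were at Foxo1. Each of the other 7 lists was the only one missing 1 to 3 regions at these loci. Flt3-ITD/Runx1-het alone lacked 3 (1.85%, against 0.62% of all regions) and set-2 wild type alone lacked 2 (1.23%, against 0.214%). The rest each lacked 1 (0.617%, against 0.315% to 1.06%). The highest −log10 p among the 12 was 123 in another list, at the Foxo1 region inside the gene. Such regions cannot be told apart from ones that fell below the peak threshold of a short list.

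Genes of the surrounding network were counted in the same way. The windows of 28 other genes of lymphoid priming and early lymphoid development held 662 regions. With Runx1-het, both lists gained 26 of them (3.93%, against 2.38% of all regions) and lost 4 (0.604%, against 1.15%). In order of the highest −log10 p in any of the 8 lists, with or without the mutation, the gains were led by regions at Notch1, Foxp1, Ebf1 and Irf8. With NUP98-HOXD13 16 were gained (2.42%, against 2.80%), led in that order by regions at Pax5, Runx3, Mef2c and Spi1, and 6 were lost (0.906%, against 2.07%), led by Id3, Myb, Gata3 and Ets1. With Flt3-ITD the lists of set 1 gained 13 (1.96%, against 2.79%) and lost 11 (1.66%, against 1.78%), and those of set 2 gained 3 (0.453%, against 0.452%) and lost 19 (2.87%, against 4.50%).

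The 5 paralogues of the members held 73 regions, of which both lists with NUP98-HOXD13 gained 0 (against 2.80% of all regions) and lost 1 (1.37%, against 2.07%), and both with Runx1-het gained 1 (1.37%, against 2.38%) and lost 0 (against 1.15%). For 12 myeloid and erythroid genes with 182 regions, both lists with NUP98-HOXD13 gained 4 (2.20%, against 2.80% of all regions) and lost 3 (1.65%, against 2.07%). Both with Runx1-het gained 6 (3.30%, against 2.38%) and lost 2 (1.10%, against 1.15%). The share lost with NUP98-HOXD13 was below that of all regions in each of these 3 gene lists and at the 8 genes (0, against 2.07%). The share gained was also below it in the 3 lists (2.42%, 0 and 2.20%, against 2.80%), but above it at the 8 genes (3.09%). These counts were small, so no direction is drawn from them. The share of a list's regions that lay at each member was compared over the 8 lists with that of up to 11839 other genes. The genes most like each member were Fbxl12 and S100a10 for Ikzf1 (Pearson r 0.985 and 0.966), Nab1 and Bcar3 for Ikzf2 (0.992 and 0.972), Nod1 and Eya2 for Ikzf3 (0.982 and 0.981) and Aunip and Ppp2r5a for Satb1 (0.966 and 0.954). For the remaining members they were Fbxw10 and Ccdc63 for Bcl11a (0.965 each), D430041D05Rik and Wdr90 for Foxo1 (0.969 and 0.968), Duoxa2 and Duox2 for Tcf3 (0.975 and 0.971) and Kmo and Pkd1 for Tcf12 (0.979 and 0.975). The 8 points share the lengths of the lists, and 14 to 64 genes had r above 0.9 for each member, so the order among them is a description.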

How the data were processed

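ATAC-seq peak lists were deposited by the authors for 8 groups of 2 samples, 1 list per group, with a signal track that the labels call pooled. The submitters' processing notes name Bowtie2, MACS2 and the builds mm10 and GRCm38, without tool versions, and the labels cite a published tagmentation protocol. Peak thresholds, read shifting, duplicate removal and filters on agreement between samples were not stated in the sources used here, so a missing peak may reflect any of them. The deposited values per peak were a fold enrichment (a ratio), a −log10 p and a summit offset in bp, which is another unit. They were used to rank and describe the peaks of each list.

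Peaks of the 8 lists sharing 1 bp or more were merged into regions, each counted as present where a list had a peak inside it. Regions were placed by RefSeq gene spans of GRCm38.p6, and 6 of the 8 genes had an entry in the RefSeq start table. Chromosome 18 is not in that table. Regions were named by rule: over a start (or highest median), highest −log10 p, strong gains and losses, and up to 2 per locus, mutation and direction. Rank separations, the order of the 2 Foxo1 regions and the regions beside the Bcl11a start were chosen after their values were seen. Members and lists were chosen with earlier results of these data known. Merging and counting were tested on simulated lists. Python 3.11.15, pandas 2.3.3 and numpy 2.4.6 were used.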

Additional observations from a re-analysis of the deposited data

How the results depend on the processing

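Depth per sample was unknown and each group had 1 list, so no result has a replicate error, and leaving out a sample was not run. No paired analysis was possible because the replicate numbers belong to samples and the lists hold both samples of a group. With a stricter overlap for merging (a set share of the shorter peak in place of 1 bp), and with the wild-type list of the other set, the counts kept within 1.5 times of those reported. With that wild-type list, shares lost at the loci changed sides relative to all regions in all 6 mutant lists. The cause of the changes that follow was not tested, apart from the smaller or wider window where that is the setting.

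With the same number of peaks from every list, set-1 Flt3-ITD gained 12 (9.45%, against 10.6% of all regions) and Runx1-het gained 9 (7.09%, against 9.68%). NUP98-HOXD13/Flt3-ITD gained 10 (7.87%, against 9.47%) and lost 10 (7.87%, against 12.7%). NUP98-HOXD13 lost 9 (7.09%, against 11.7%) and set-2 Flt3-ITD lost 26 (20.5%, against 18.8%). In both lists with a mutation, Runx1-het gained 2 (1.57%, against 1.49%). NUP98-HOXD13 gained 2 (1.57%, against 3.28%) and lost 1 (0.787%, against 2.75%). Set-2 Flt3-ITD gained 0 (against 0.939%) and lost 2 (1.57%, against 2.73%). With −log10 p of at least 10, NUP98-HOXD13/Flt3-ITD gained 13 (8.55%, against 7.21%) and set-2 Flt3-ITD gained 2 (1.32%, against 1.24%). Both set-2 Flt3-ITD lists then gained 0 (against 0.219%) and lost 3 (1.97%, against 4.71%).

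On gene spans alone there were 84 regions, 27 of them in all 8 lists. Flt3-ITD/Runx1-het lost 12 (14.3%, against 7.94% of all regions). Set-1 Flt3-ITD gained 10 (11.9%, against 13.6%) and lost 8 (9.52%, against 7.35%), and Runx1-het gained 11 (13.1%, against 15%). NUP98-HOXD13/Flt3-ITD gained 10 (11.9%, against 8.09%) and lost 11 (13.1%, against 18.8%). NUP98-HOXD13 gained 10 (11.9%, against 8.85%) and lost 13 (15.5%, against 17.3%). Set-2 Flt3-ITD gained 2 (2.38%, against 3.29%) and lost 22 (26.2%, against 28.7%). In both lists, set-1 Flt3-ITD lost 1 (1.19%, against 1.78%) and NUP98-HOXD13 gained 3 (3.57%, against 2.8%). Set-2 Flt3-ITD gained 0 (against 0.452%) and lost 3 (3.57%, against 4.5%). Both Runx1-het lists still gained 5 (now 5.95%, against 2.38%) and lost 2 (now 2.38%, against 1.15%). With 100 kb flanks there were 256 regions, 80 in all 8 lists. Set-1 Flt3-ITD gained 36 (14.1%, against 13.6% of all regions) and Runx1-het gained 39 (15.2%, against 15%). NUP98-HOXD13/Flt3-ITD lost 33 (12.9%, against 18.8%). NUP98-HOXD13 gained 29 (11.3%, against 8.85%) and lost 37 (14.5%, against 17.3%), and set-2 Flt3-ITD lost 77 (30.1%, against 28.7%). In both lists, set-1 Flt3-ITD gained 8 (3.12%, against 2.79%), and NUP98-HOXD13 gained 8 (3.12%, against 2.8%) and lost 2 (0.781%, against 2.07%).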
